A study of Mus musculus with 2 samples.

Results

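The genes described are the 10 that encode the core of the MHC class I antigen presentation pathway and the immunoproteasome, namely H2-K1, H2-D1, B2m, Tap1, Tap2, Tapbp, Nlrc5, Psmb8, Psmb9 and Psmb10. They were chosen by gene symbol, and all 10 were found among the 31053 genes of the deposited matrix. They took 0.710% of the unique molecular identifiers (UMIs, each standing for 1 captured transcript) of the cells kept from the library labelled WT, and 0.796% of those from the library labelled KO. The data were single-cell RNA sequencing of live CD45+ cells, that is leucocytes, sorted from tumours of B16, a mouse melanoma cell line, carried by mice aged 8 weeks. WT mice were Mettl3 fl/fl Lyz2 +/+ and KO mice Mettl3 fl/fl Lyz2 cre/+, so both groups carried the floxed allele of Mettl3, the catalytic subunit of the m6A RNA methyltransferase. The Cre recombinase was driven from the Lyz2 locus and acts in macrophages, monocytes, granulocytes and, by the study's account, a minority of dendritic cells, whereas T, NK and B cells and the B16 cells themselves are not its targets. There was 1 library per genotype, so no p-value was computed, and each interval is a 95% interval that covers counting error only and not the spread between mice.

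MHC class I molecules show peptides from a cell's own proteins to CD8 T cells. Proteasomes cut the proteins, and the immunoproteasome subunits Psmb8, Psmb9 and Psmb10 replace the constitutive subunits Psmb5, Psmb6 and Psmb7 in leucocytes and in cells exposed to interferon-γ. The transporter formed by Tap1 and Tap2 carries the peptides into the endoplasmic reticulum, tapasin (Tapbp) bridges the transporter to the empty molecule, and the heavy chains H2-K1 and H2-D1 reach the surface paired with β2-microglobulin (B2m). Nlrc5 is the transactivator of the class I genes and acts through the promoter elements known as the X1, X2 and Y boxes.

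By the GENCODE annotation of GRCm38, 7 of the 10 genes lie on chromosome 17, in the MHC. Psmb9, Tap1, Psmb8 and Tap2 stand side by side within chr17:34181987-34216321, a stretch of 34335 bases. Tapbp (chr17:33915899-33929292) and H2-K1 (chr17:33996017-34000347) lie before that block, and H2-D1 (chr17:35262730-35267499) after it. B2m lies on chromosome 2 (chr2:122147686-122153083), and Nlrc5 (chr8:94434356-94527272) and Psmb10 (chr8:105935735-105938444) on chromosome 8. The RefSeq starts of Psmb9 and Tap1 point away from each other and are 226 bases apart, and the GENCODE models of both genes overlap by 212 bases at these 5′ ends.

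RefSeq promoter windows (GRCm38.p6) were found for 8 of the 10 genes, and for Tap2 and Nlrc5 none was found. The 250 bases before each start were searched on both strands for a pair of GAAA 2 bases apart, the interferon-stimulated response element bound by IRF factors, and for TGACGC and CCAAT, the cores of the X2 and Y boxes. Of 32851 promoter windows, 2.98% held the response element, 6.12% the X2 core and 33.8% the Y core. The 3 stretches below are shown because they carry these elements in the genes the comparisons turn on, with every match in capitals. The H2-K1 and B2m stretches end at or just before the RefSeq start, and that of H2-D1 is 30 bases around the match.
H2-K1, chr17:34000348-34000467, minus strand: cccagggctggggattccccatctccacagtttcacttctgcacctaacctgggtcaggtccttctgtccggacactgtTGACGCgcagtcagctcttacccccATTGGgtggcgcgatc
H2-D1, chr17:35262981-35263010, plus strand: ccgggacactgaTGACGCgctggcaggtct
B2m, chr2:122147537-122147685, plus strand: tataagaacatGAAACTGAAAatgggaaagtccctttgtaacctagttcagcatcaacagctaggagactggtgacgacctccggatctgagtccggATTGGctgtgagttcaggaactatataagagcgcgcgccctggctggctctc
Both heavy chain promoters held the X2 core, at 41 bases before the start in H2-K1 and 101 bases before it in H2-D1, and each had the Y box core on the reverse strand downstream of it. The B2m promoter held the response element at 139 bases before its start. The Y box core was also present in the windows of Tap1, Tapbp and Psmb9, and the window of Psmb10 held none of these motifs. A match is a description of the letters and not evidence that a factor binds there.

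The library labelled WT held 5895 barcodes with 45963969 UMIs and the library labelled KO 8446 with 54052317. After filters and removal of doublets, 5405 and 7625 cells were kept, with medians of 4148 and 3567 UMIs a cell, and 13 barcode sequences occurred in both libraries. Mettl3 in macrophage-like cells was at 9.94 UMIs per 1000000 UMIs of the class (CPM, the unit of all levels here) under the WT label and 10.4 under the KO label (log2 ratio 0.07, interval -0.23 to 0.37). The sources used here do not say which exons are deleted, and tags from the 3′ end may lie outside them, so this value neither supports nor contradicts the labels. Lyz2, which loses 1 allele to Cre, was at 6064 and 2733 CPM in the same cells. Cells were put into classes by UMI thresholds on marker genes, and 12 classes with at least 50 cells in each library were compared. In all 12, the leading genes included markers of the class. Examples were C1qa, C1qb and C1qc in macrophage-like cells and Dct, Tyrp1, Mlana and Pmel in melanoma-like cells. These markers also set the thresholds, so their lead is not a check of the class. A class cut by a threshold is a range and not a type: 51 of 1691 and 102 of 2145 macrophage-like cells lay within 20% of the threshold, and 17 of 121 and 22 of 142 cDC2-like cells.

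UMIs of all 10 genes were found in each of the 12 classes, and the mature DC-like cells, marked by Ccr7 and Fscn1, stood first or second in both libraries for every gene but Psmb10. In these cells H2-K1 was at 3364 CPM under the WT label and 3465 under the KO label. H2-D1 was at 2798 and 2842. B2m was at 4533 and 4623. These H2-D1 and B2m levels were the highest of any class in both libraries, while for H2-K1 the interval of the mature DC-like level overlapped that of NK-like cells (3308 and 3270) and, under the KO label, that of pDC-like cells (3508). Averaged over the 10 genes as a standardised log2 level, mature DC-like cells stood 1.27 SD above the mean of the classes, pDC-like cells 0.58 above and CD4 T-like cells 0.46 above. Granulocyte-like cells stood lower, at -0.73, and melanoma-like cells lowest, at -2.45.

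**Figure D1:**
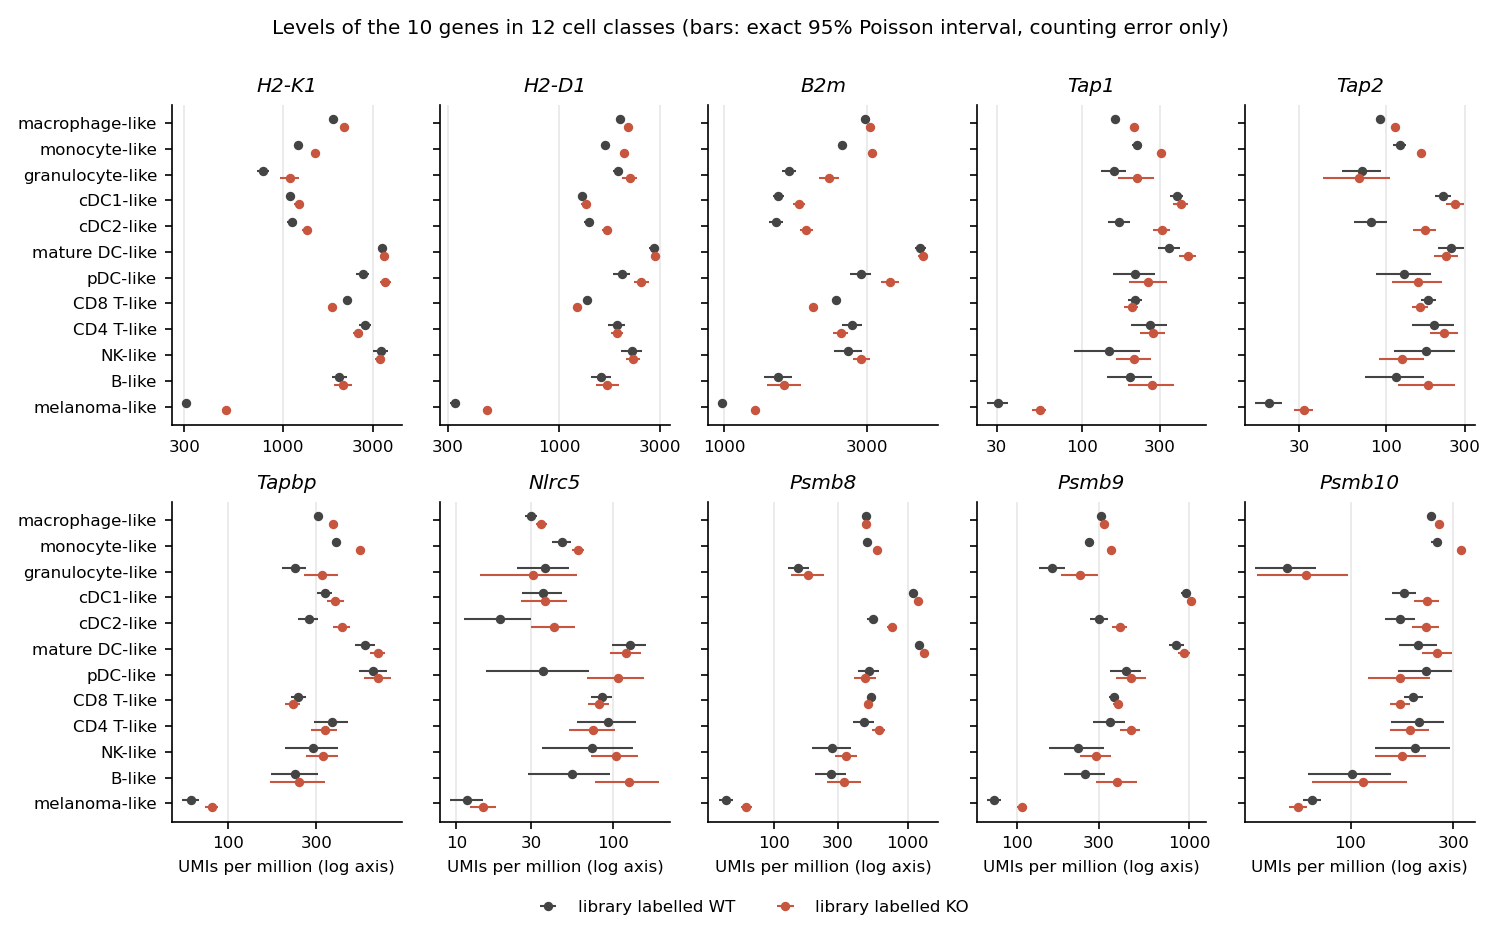
Levels of each gene (CPM, log axis) in 12 cell classes, with the library labelled WT in grey and that labelled KO in red, and bars for the exact 95% Poisson interval. Melanoma-like cells sit at the left of 9 of the 10 panels in both libraries, whereas mature DC-like cells sit at or near the right except for Psmb10, which is highest in monocyte-like cells.

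The genes did not all follow the same order. The transporter and the 2 immunoproteasome genes next to it were highest in dendritic cells. Tap1 was at 381 and 402 CPM in cDC1-like cells, the Xcr1-positive dendritic cells known for presenting captured antigen on class I, and at 343 and 445 in mature DC-like cells. Psmb9 was at 955 and 1030 in cDC1-like cells and 844 and 935 in mature DC-like cells, against 306 and 319 in macrophage-like cells. Psmb8 had the widest range of the 10 genes, with 1222 and 1314 in mature DC-like cells and 43.6 and 62.1 in melanoma-like cells, a difference of 28.0-fold and 21.2-fold. The cDC1-like cells therefore combined high peptide processing transcripts with lower surface chain transcripts, since their H2-K1 (1099 and 1215) and B2m (1520 and 1780) were below the macrophage-like levels of 1841 and 2110 for H2-K1 and 2952 and 3066 for B2m.

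Psmb10 went another way. It was highest in monocyte-like cells, at 250.5 and 324 CPM, followed by macrophage-like cells at 235 and 257. The intervals of these 2 classes overlapped under the WT label (235 to 267 and 228 to 242) but not under the KO label. The macrophage-like interval overlapped that of the next class in each library. Psmb10 was lowest in granulocyte-like cells under the WT label (50.6) and in melanoma-like cells under the KO label (57.3), although the intervals of granulocyte-like and melanoma-like cells overlapped in each library. Tapbp was highest in pDC-like cells (605 and 641), with an interval that overlapped that of mature DC-like cells (550 and 639). Nlrc5, the transactivator, had the lowest counts, and each of the 11 pairs of classes next to each other in its order overlapped in each library. Its levels ran from 11.8 in melanoma-like to 129 in mature DC-like cells under the WT label, and from 14.8 in melanoma-like to 128 in B-like cells, just above mature DC-like cells (122), under the KO label.

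Across the 12 classes, with both libraries averaged, the closest pairs were Psmb8 with Psmb9 (Pearson r = 0.95), Tap1 with Tap2 (0.93) and Tap1 with Psmb8 (0.93). The most distant were Nlrc5 with Psmb10 (0.47) and B2m with Psmb9 (0.52). The 12 points share their libraries, and the melanoma-like point lies far from the rest. By the same measure, the genes outside the pathway lists most like the mean of the 10 were Ptger4, a prostaglandin E2 receptor (r = 0.98), Gm42031 (0.96), Tagln2 (0.96), Arrdc1 (0.95) and Epsti1 (0.95). All 5 were also highest in mature DC-like and lowest in melanoma-like cells.

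The balance of H2-K1 and H2-D1 differed among the classes. H2-K1 made up 61.6% and 60.1% of the UMIs of both heavy chains in CD8 T-like cells, 60.1% and 59.4% in NK-like cells and 59.4% and 57.0% in CD4 T-like cells. It made up 48.7% and 49.8% in macrophage-like, 42.1% and 42.1% in monocyte-like and 29.4% and 33.5% in granulocyte-like cells. All of the T-like and NK-like shares were thus above all of the macrophage-like, monocyte-like and granulocyte-like shares, in each library, and granulocyte-like cells had the largest H2-D1 share. The classes did not fall into separate lymphoid and myeloid groups, since pDC-like cells (57.4% and 58.9%) and mature DC-like cells (54.6% and 54.9%) lay beside B-like cells (55.8% and 55.4%). The 3′ ends of both genes can be told apart by sequence: of 351 stretches of 50 bases in the last 400 bases of H2-K1, 2 also occur in another H2 gene, and the same number of H2-D1.

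The immunoproteasome share was calculated as the UMIs of Psmb8, Psmb9 and Psmb10 in those of all 6 catalytic subunits. It was 83.4% and 82.2% in mature DC-like cells and 77.7% and 75.9% in cDC1-like cells. Macrophage-like cells had 55.2% and 55.5%, the lowest of the leucocyte classes. The difference between the libraries in macrophage-like cells was 0.263 percentage points (interval -0.484 to 1.01), which was not detectable beyond counting error. In monocyte-like cells the share was 61.7% (interval 60.5 to 62.9) under the WT label and 65.7% (65.0 to 66.5) under the KO label. In CD8 T-like cells it was 64.7% (63.1 to 66.4) and 61.8% (60.2 to 63.4).

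**Figure D2:**
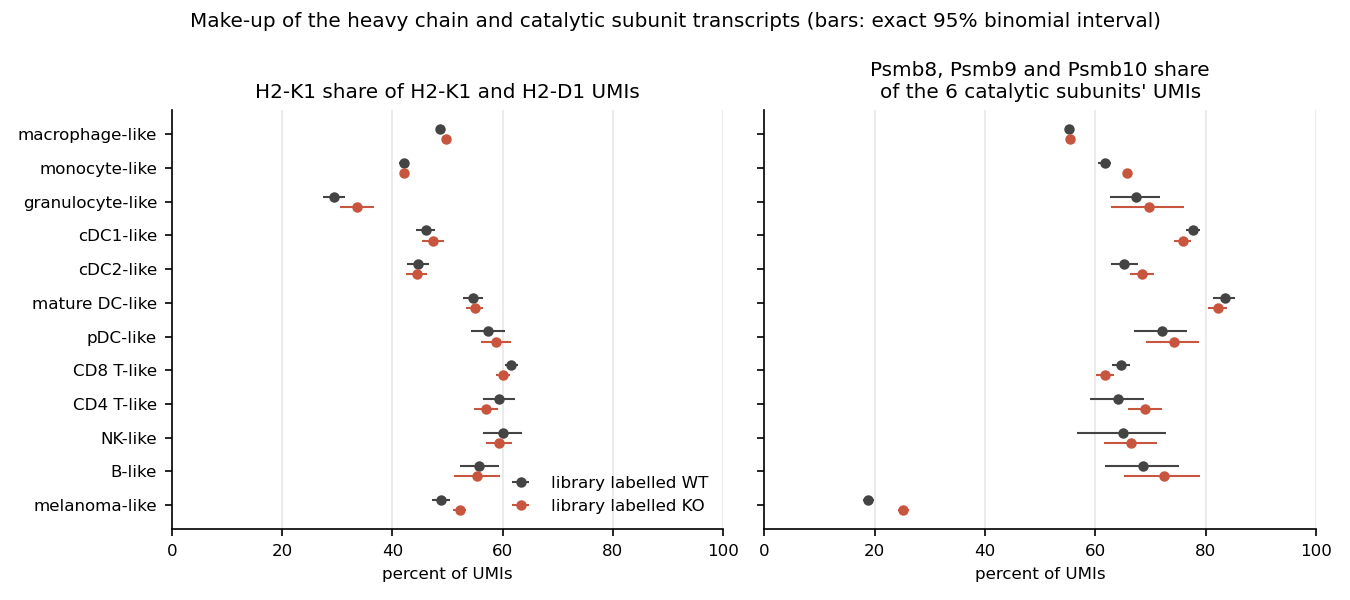
Left, the percent of H2-K1 and H2-D1 UMIs that were H2-K1, and right, the percent of catalytic subunit UMIs that came from Psmb8, Psmb9 and Psmb10, for 12 classes and both libraries (grey, labelled WT; red, labelled KO; bars, exact 95% binomial interval). Granulocyte-like cells have the lowest H2-K1 share (29.4% and 33.5%), and melanoma-like cells the lowest immunoproteasome share (18.8% and 25.2%).

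The libraries were then compared within each class, with a log2 ratio (KO over WT) of 0.5 or more, with 1 added to both levels, counted as past the fold. In macrophage-like cells, which are among the targets of the deletion, 0 of 10 genes passed, against 1.87% of the 2827 genes with at least 50 CPM in either library. Shares and medians of all genes are given over the genes that reach this level in the class, whereas the counts are over all 10 members, of which 8 to 10 reach it. All 10 were nevertheless somewhat higher under the KO label, 9 of them beyond counting error where 29.7% of all genes were, with a median log2 ratio of 0.16 (interval 0.14 to 0.19) where the median of all genes was 0.0091. The loading genes Tap1, Tap2 and Tapbp had the highest ratios in the summed counts. Tap1 was at 160 and 209.8 CPM, a log2 ratio of 0.39 (0.32 to 0.46). Tap2 was at 91.9 and 114 (0.31, 0.22 to 0.40), and Tapbp at 307 and 368 (0.26, 0.21 to 0.31). Among the surface chains, H2-K1 differed by 0.20 (0.18 to 0.22), H2-D1 by 0.13 (0.11 to 0.15) and B2m by 0.05 (0.04 to 0.07). Among the immunoproteasome genes, Psmb8 was at 484 and 487 (0.01, -0.03 to 0.05), Psmb9 at 306 and 319 (0.06, 0.0036 to 0.11) and Psmb10 at 235 and 257 (0.13, 0.07 to 0.19). Nlrc5 was at 30.1 and 34.9 (0.21, 0.05 to 0.38). In the same cells the summed granulocyte markers were at 444 and 304 CPM, the T cell markers at 110 and 81.4 and the melanoma markers at 122 and 131, and their part in the ratios was not tested.

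The macrophage-like cells fell into 7 clusters with at least 20 cells in each library. H2-K1, Tap1, Tap2, Tapbp and Nlrc5 were higher under the KO label in 7 of 7, a count for which no share of all genes was computed. Every Nlrc5 interval among them reached 0, and for each of the others at least 1 interval did. Tap1 ratios ran from 0.24 to 0.62 over these clusters, and H2-K1 ratios from 0.06 to 0.40. H2-D1, Psmb9 and Psmb10 were higher in 6 of 7, Psmb8 in 3 of 7 and B2m in 2 of 7. B2m intervals lay above 0 in some clusters (0.17, 0.13 to 0.21, and 0.24, 0.14 to 0.33). In others they lay below 0 (-0.10, -0.18 to -0.03, and -0.11, -0.15 to -0.07). The clusters held unlike shares of the class, with 16.2% and 24.3% of the cells in one, where B2m was at 3299 and 3714 CPM, and 37.2% and 30.6% in another, where it was at 2996 and 2953. Macrophage-like cells were shallower under the KO label, with medians of 8912 and 6339 UMIs a cell, and with cells thinned to 1000 UMIs the 10 ratios stayed above 0, 6 of them beyond counting error. In the thinned counts Tap1 was still the highest (0.44, 0.22 to 0.66), but Tap2 (0.09, -0.19 to 0.37) and Tapbp (0.18, 0.02 to 0.34) were not above H2-K1 (0.27, 0.20 to 0.33) or Psmb10 (0.22, 0.02 to 0.42).

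Within macrophage-like cells thinned to 5000 UMIs, H2-K1 varied with H2-D1 (Spearman 0.43 in 1172 cells labelled WT and 0.48 in 1269 labelled KO) and with B2m (0.44 and 0.42). It varied little with Psmb8 (0.07 and 0.12) or Tap1 (0.10 and 0.18). These are sparse counts from cells of 1 library each and are given as a description.

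In monocyte-like cells, marked by Ly6c2, Plac8 and Chil3, all 10 genes were higher under the KO label beyond counting error, as were 24.9% of all genes, although 0 of 10 passed the fold (4.81% of all genes did). Their log2 ratios ran from 0.24 to 0.49, with a median of 0.36 where that of all genes was 0.02. H2-K1 was at 1205 and 1476 CPM, H2-D1 at 1655 and 2028, and B2m at 2473 and 3132. The B2m ratio was 0.34 (0.31 to 0.37), with an interval above that of macrophage-like cells (0.04 to 0.07). Tap1 was at 217 and 305 (0.49, 0.38 to 0.61) and Psmb9 at 264 and 350.5 (0.41, 0.31 to 0.51). Among the 6 monocyte-like clusters the direction was less uniform, with H2-D1, Tapbp and Psmb10 higher in 6 of 6 and Tap2 and Nlrc5 in 4 of 6. The clusters also held unlike shares of the class, with 38.6% and 27.6% of the cells in one and 5.96% and 12.2% in another. With equal weight for each cluster all 10 ratios stayed above 0, but 7 of them lay below their main intervals, namely H2-K1 (0.15), H2-D1 (0.21), B2m (0.18), Tap1 (0.25), Tap2 (0.27), Tapbp (0.26) and Nlrc5 (0.09). Median depth was 4174.5 UMIs a cell under the WT label and 3401.5 under the KO label. With cells thinned to 1000 UMIs all 10 ratios stayed above 0, 8 of them beyond counting error. The thinned intervals of Tap2 (0.31, -0.0032 to 0.64) and Nlrc5 (0.07, -0.44 to 0.59) reached 0. Ifngr1, the interferon-γ receptor chain, went the other way at 275 and 193 (-0.51, -0.62 to -0.40).

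The cDC2-like cells, marked by Cd209a and Mgl2, had the most genes past the fold among the dendritic classes, 4 of 10 where 6.74% of all genes passed, or 3 of the 9 that reached 50 CPM. The 4 were the loading genes and the transactivator. Tap2 was at 81.2 and 173 CPM (log2 ratio 1.09, 0.69 to 1.5). Tap1 was at 170 and 309 (0.86, 0.58 to 1.15), and Tapbp at 272 and 410.2 (0.59, 0.36 to 0.83). Nlrc5 was at 19.0 and 42.1 (1.15, 0.30 to 2.05), on few UMIs. The remaining 6 ratios ran from 0.27 for H2-K1 to 0.48 for Psmb8, and the interval of each was above 0. These values rest on 121 and 142 cells. The summed level of 8 T cell markers in them was 110 and 56.5 CPM, that of the macrophage markers 915 and 932 and that of the melanoma markers 44.3 and 71.0. The part of these markers in the ratios was not tested. With cells thinned to 1000 UMIs 7 of 10 genes passed, but only 5 intervals, those of B2m, Tap1, Tap2, Tapbp and Psmb8, were above 0. The thinned ratios of the other surface chains were near 0, with H2-K1 at -0.02 (-0.34 to 0.30) and H2-D1 at 0.06 (-0.23 to 0.34), and that of Psmb10 was 0.14 (-0.63 to 0.92). With equal weight for each cluster 7 of 10 genes passed.

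The other dendritic classes had fewer genes past the fold. In mature DC-like cells 0 of 10 genes passed (10.6% of all genes), and the median ratio was 0.07, as was that of all genes. Of their 10 intervals 9 reached 0, the exception being Tap1 (0.38, 0.10 to 0.66). In cDC1-like cells 0 of 10 passed (8.55% of all genes), and H2-K1 (0.14), B2m (0.23) and Psmb10 (0.35) were higher beyond counting error. In pDC-like cells 1 of 10 passed (19.2% of all genes), and this was Nlrc5, on 8 and 24 UMIs. The surface chains of pDC-like cells were higher under the KO label, H2-K1 by 0.40 (0.24 to 0.55), H2-D1 by 0.31 (0.13 to 0.49) and B2m by 0.33 (0.17 to 0.48). Markers of other cells also differed in these classes, with the granulocyte markers at 108 and 273 CPM and the melanoma markers at 53.8 and 108 in pDC-like cells, the granulocyte markers at 209.7 and 52.5 in cDC1-like cells and the melanoma markers at 36.8 and 92.4 in mature DC-like cells. Their part in the ratios was not tested.

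In granulocyte-like cells, which carry the highest Retnlg and S100a8, 1 of 10 genes passed the fold, below the 22% of all genes that did. This was Psmb9, at 161 and 234 CPM (0.54, 0.09 to 0.98). H2-K1 was at 787 and 1090 (0.47, 0.27 to 0.67) and B2m at 1650 and 2239 (0.44, 0.30 to 0.58). The median of all genes in this class was itself 0.14, and the class had medians of 1309 and 1040 UMIs a cell. The count of 1 ran from 0 to 6 under the alternatives tried.

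CD8 T-like cells were the class in which most of the genes lay below 0. In them 0 of 10 passed the fold (2.16% of all genes), and 9 of 10 ratios were below 0. H2-K1 was at 2186 and 1825 CPM (-0.26, -0.32 to -0.20), H2-D1 at 1363 and 1213 (-0.17, -0.25 to -0.09) and B2m at 2367 and 1976 (-0.26, -0.32 to -0.20). The 7 other intervals reached 0, with Psmb9 above 0 at 0.08. The lower surface chain values depended on the weight of the cells: with every cell given equal weight, the ratios were -0.03, 0.01 and -0.05. With cells thinned to 1000 UMIs they were -0.04, -0.06 and -0.05, and the intervals of all 10 genes reached 0. In the 2 CD8 T-like clusters, H2-K1 differed by -0.33 and -0.02. The summed granulocyte markers (263 and 96.1 CPM) and Lyz2 (748 and 154 CPM) also differed in these cells, and their part was not tested. Ifng, the gene for interferon-γ, was at 263 and 363 (0.47, 0.30 to 0.63) in the same cells, so it and the surface chains lay on opposite sides of 0.

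The other lymphoid classes had fewer UMIs. In CD4 T-like cells 0 of 10 genes passed the fold (14.7% of all genes). Psmb8 (467 and 607, log2 ratio 0.38, 0.06 to 0.70) and Psmb9 (345 and 458, log2 ratio 0.41, 0.04 to 0.78) were higher beyond counting error. Ifng in these cells was at 32.5 and 124 CPM, from 8 and 60 UMIs. In NK-like cells 2 of 10 passed (18% of all genes), Tap1 and Nlrc5, and the intervals of all 10 genes reached 0. Ifng in NK-like cells was at 169 and 86.2, from 23 and 28 UMIs. In B-like cells 3 of 10 passed (25.1% of all genes), Tap2, Nlrc5 and Psmb9, at a median depth of 1397 and 1099 UMIs a cell. In these 3 classes the share of the 10 genes past the fold was thus near or under that of all genes.

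**Figure D3:**
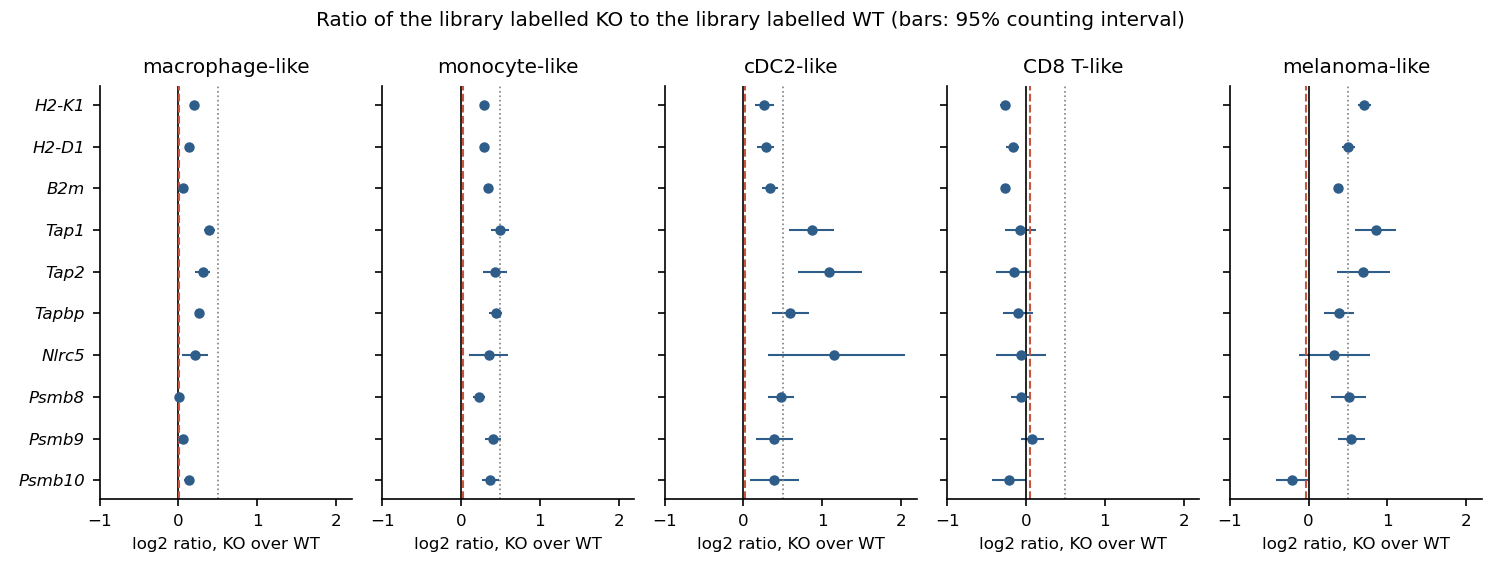
Log2 ratios of the library labelled KO over that labelled WT for the 10 genes in 5 classes, with bars for the 95% counting interval, a dotted line at 0.5 and a dashed red line at the median of all genes. All 10 points lie above 0 in macrophage-like, monocyte-like and cDC2-like cells, 9 of 10 lie below 0 in CD8 T-like cells, and 9 of 10 lie above 0 in melanoma-like cells.

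The melanoma-like cells, 130 under the WT label and 222 under the KO label, were cells with high melanocyte genes found in the CD45+ sort. Their level of each of the 10 genes was compared with that of macrophage-like cells of the same library. It was 9.02% to 39.1% of the macrophage-like level under the WT label, with a median of 21.04%, and 12.7% to 42.4% under the KO label, with a median of 24.95%. Nlrc5 was at the top in both libraries (39.1% and 42.4%), B2m stood at 33.3% and 41.5%, H2-K1 at 16.7% and 23.7%, and Psmb8 was at the bottom (9.02% and 12.7%). The pan-leucocyte genes Ptprc, Coro1a, Laptm5, Cd52 and Tyrobp stood at 1.41% to 2.53% and 1.24% to 2.47% in the same cells. Of the 9 macrophage markers, 8 stood at 0.475% to 1.19% and 0.427% to 1.02%, among them C1qa, C1qb and C1qc. The ninth, Apoe, an apolipoprotein, was at 675 and 666 CPM in melanoma-like cells and stood at 14.8% and 16.9%. The class II invariant chain Cd74 stood at 1.70% and 2.12%. All 10 genes were thus at a larger share of the macrophage-like level than these genes of leucocytes, except that Apoe lay within their range. The 9 macrophage markers also set the threshold of the macrophage-like class, and melanoma-like cells over that threshold were set aside. Their low share was thus partly fixed by the thresholds, which used neither the pan-leucocyte genes nor Cd74.

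**Figure D4:**
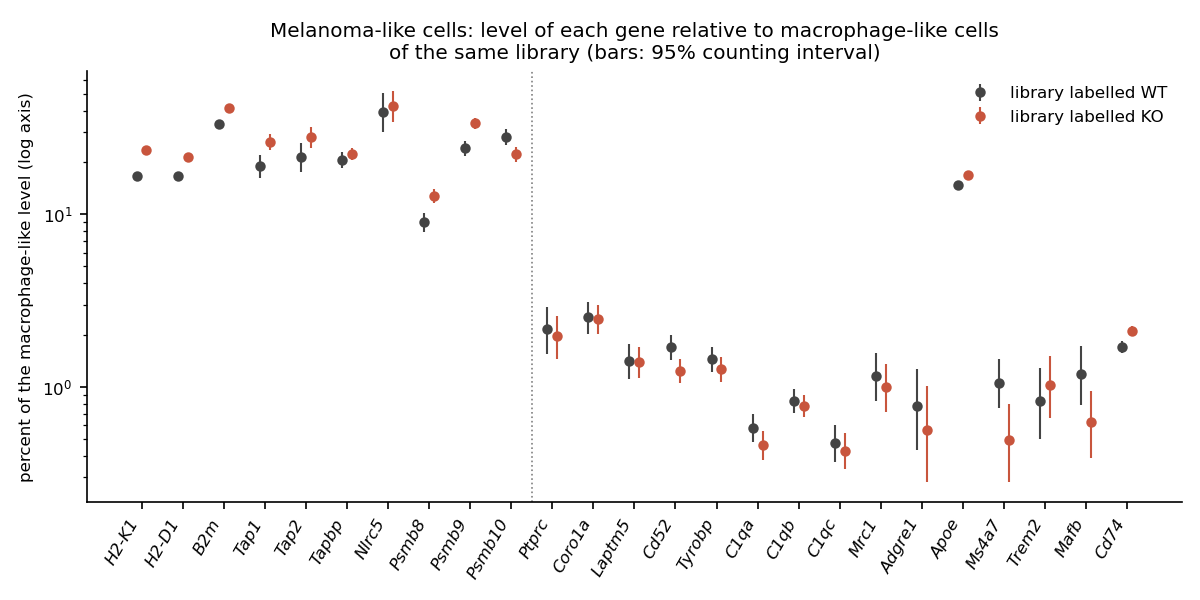
Level in melanoma-like cells as a percent of the level in macrophage-like cells of the same library (log axis), with the 10 class I pathway genes left of the dotted line and genes of leucocytes right of it (grey, labelled WT; red, labelled KO; bars, 95% counting interval). The 10 genes lie between 9.02% and 42.4%, whereas the genes right of the line lie between 0.427% and 2.53% except for Apoe (14.8% and 16.9%). The macrophage markers right of the line also set the threshold of the macrophage-like class.

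Melanoma-like cells also differed between the libraries. With 2.42% of all genes past the fold, 5 of 10 genes were, or 4 of the 8 that reached 50 CPM, and 9 of 10 ratios were above 0, while the median of all genes was -0.03. H2-K1 was at 307 and 499.9 CPM (0.70, 0.62 to 0.79). H2-D1 was at 322 and 457 (0.50, 0.42 to 0.59), and Tap1 at 30.5 and 55.0 (0.85, 0.59 to 1.11). Tap2 was at 19.8 and 32.0 (0.69, 0.37 to 1.03), Psmb9 at 73.8 and 107 (0.54, 0.37 to 0.71) and Psmb8 at 43.6 and 62.1 (0.51, 0.28 to 0.73; just short of the fold once 1 was added). B2m was at 984 and 1273 (0.37, 0.32 to 0.42). Psmb10 alone was below 0 in the summed counts, at 66.3 and 57.3 (-0.21, -0.41 to -0.01).

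Genes of leucocytes in these cells did not share one direction. The sum over the 5 pan-leucocyte genes was 85.6 and 76.0 CPM (-0.17, -0.35 to 0.0057), that over the macrophage markers 755 and 731 and that over the granulocyte markers 133 and 28.0. Cd74 was higher under the KO label, at 92.6 and 135 CPM (0.55, 0.40 to 0.70), and so were the T cell markers, at 4.94 and 9.21 CPM from 29 and 68 UMIs. The part of these genes in the ratios was not tested. In the melanoma-like cells with at most 5 leucocyte UMIs per 10000, which left out 8 cells of each library, H2-K1 was at 299.9 and 498 and its ratio was 0.73, with Cd74 at 77.6 and 102 (0.40, 0.23 to 0.57). The size of the difference did depend on the weight of the cells. With every cell given equal weight the H2-K1 ratio was 0.41, that of H2-D1 0.11, that of B2m 0.12 and that of Tap1 0.82, and 1 of 10 genes passed the fold, and with doublets kept 2 of 10 did. Median depth was 47000 UMIs a cell under the WT label and 35065 under the KO label. With cells thinned to 1000 UMIs H2-K1 was at 0.06 (-0.41 to 0.54, from 63 and 102 UMIs), Psmb9 was at -0.73 (-1.90 to 0.42, from 15 and 14 UMIs) and Tap1 had 1 and 7 UMIs. There 3 of 10 genes passed the fold, and only the B2m interval (0.05 to 0.71) was above 0. With cells thinned to 10000 UMIs, chosen after seeing the data, 104 and 174 cells were left and 5 of 10 genes passed. H2-K1 was then at 0.65 (0.47 to 0.84), H2-D1 at 0.47 (0.30 to 0.65), B2m at 0.39 (0.28 to 0.50), Tap1 at 0.87 (0.27 to 1.52) and Psmb9 at 0.60 (0.19 to 1.02). Tapbp, at 0.38 in all cells, was at 0.68 (0.24 to 1.14), so that it passed in place of H2-D1, and 4 genes passed at both depths. One of these 4, Tap2, was at 0.76 with an interval that reached 0 (-0.01 to 1.60). Of the 10 intervals at 10000 UMIs, 6 were above 0. Psmb10 turned above 0, at 0.07 (-0.41 to 0.56) with 10000 UMIs, 0.07 (-1.31 to 1.54) with 1000 UMIs and 0.12 with every cell given equal weight.

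The immunoproteasome share in melanoma-like cells was 18.8% (17.8 to 19.9) under the WT label and 25.2% (24.1 to 26.2) under the KO label, the lowest of the 12 classes in both. Psmb8 made up 12.8% and 19.8% of the UMIs of Psmb8 and Psmb5, and Psmb9 18.4% and 28.4% of those of Psmb9 and Psmb6. The Psmb10 share of Psmb10 and Psmb7 was 28.2% and 27.3%, with intervals that overlapped. The constitutive subunits were lower under the KO label, Psmb5 at 296 and 251 CPM (-0.24, -0.34 to -0.15) and Psmb6 at 326 and 269.8 (-0.27, -0.37 to -0.18). Both parts of the Psmb8 and Psmb9 shares thus differed between the libraries.

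Cells differed more from each other in the melanoma-like class than elsewhere. The 90th percentile of H2-K1, H2-D1 and B2m CPM together was 7.81 and 8.34 times the 10th in melanoma-like cells, 5.32 and 6.32 times in the shallow granulocyte-like cells, and 2.33 to 4.03 times in the other 10 classes. With cells thinned to 10000 UMIs, which left out 26 and 48 melanoma-like cells, the ratio was 5.94 in 104 melanoma-like cells labelled WT and 7.50 in 174 labelled KO, against 2.43 in 756 and 2.29 in 679 macrophage-like cells. The thinned counts were smaller in melanoma-like cells, with medians of 14 and 20 UMIs against 65 and 67. With macrophage-like cells thinned further, to 2500 UMIs, a depth chosen after seeing the data, their medians were 17 and 18 UMIs and their ratios 3.0 and 3.1. The thinned count of the 3 chains ran from 2 to 63 UMIs a cell under the WT label and from 2 to 124 under the KO label. Over these melanoma-like cells it varied with the summed count of Tap1, Tap2 and Tapbp (Spearman 0.44 and 0.58) and with that of Psmb8, Psmb9 and Psmb10 (0.40 and 0.52). With the melanoma markers the values were 0.23 and 0.13, and with the leucocyte genes 0.07 and 0.05. The surface chain, loading and immunoproteasome transcripts were thus higher in the same melanoma-like cells, which is a description of 1 library each.

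**Figure D5:**
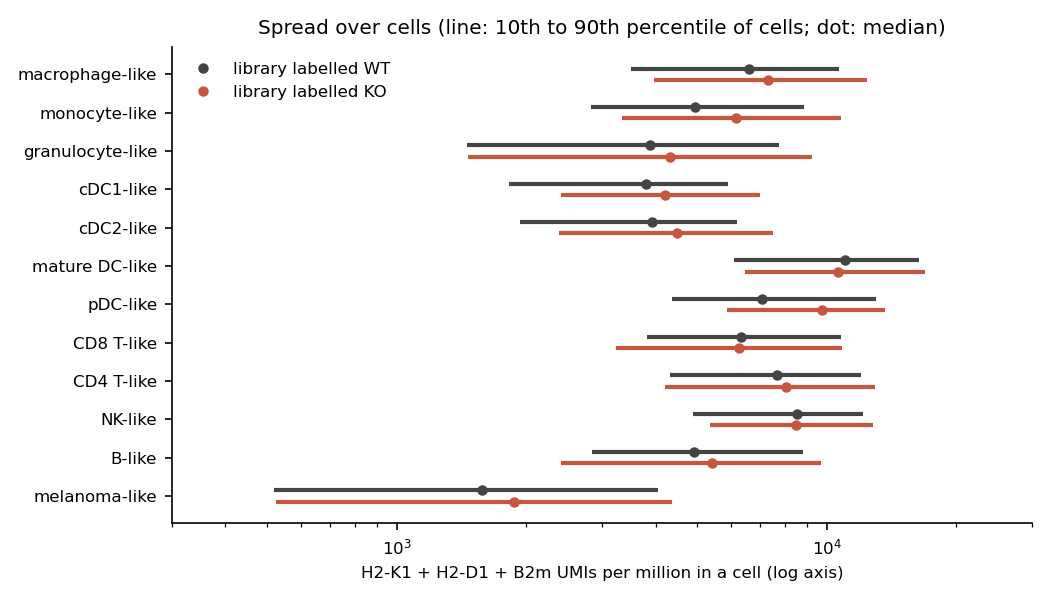
CPM of H2-K1, H2-D1 and B2m together in single cells (log axis), as the 10th to 90th percentile of cells (line) and the median (dot) for 12 classes and both libraries (grey, labelled WT; red, labelled KO). Melanoma-like cells have the lowest medians (1576 and 1873) and the widest lines, and mature DC-like cells the highest medians (11025 and 10593).

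Other genes of the pathway were taken from 5 lists. The median, highest and lowest ratios of each list are given with 1 added to both levels. Of 17 further class I heavy chains, 16 were in the matrix, and 5 reached 50 CPM in macrophage-like cells, with a median ratio of 0.32 and 0 past the fold. H2-Q7 was the highest of them (0.34) and H2-M3 the lowest (0.02). In CD8 T-like cells the 5 that reached this level had a median of -0.16. Those that reached this level therefore lay on the same side of 0 as H2-K1 and H2-D1 in both classes, while the rest had lower levels. Of these, H2-Q6 (0.47, 0.31 to 0.63), H2-T24 (0.71, 0.35 to 1.09) and H2-M2 (1.65, 0.83 to 2.53, from 17 and 51 UMIs) were higher beyond counting error in macrophage-like cells, and those below 0, such as Mr1 (-0.16, -0.55 to 0.23), had intervals that reached 0. In macrophage-like cells 0 of 8 genes of peptide loading and trimming passed, from Pdia3 (-0.08) to Sec61a1 (0.17), and 0 of 6 of proteasome activation and assembly, from Pomp (-0.05) to Psmg3 (0.22).

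The constitutive proteasome core is the barrel into which the immunoproteasome subunits are built. It had a median ratio of -0.07 in macrophage-like cells, from Psmb2 (-0.21) to Psma4 (0.10), and of -0.27 in melanoma-like cells, with 0 of 14 genes past the fold in either. The activator subunits Psme1 and Psme2 were at 455 and 478 and at 403 and 393 CPM in macrophage-like cells. In melanoma-like cells Psme1 was at 186 and 191 and Psme2 at 156 and 142, so neither shared the higher values of Psmb8 and Psmb9. Of the subunits that Psmb8, Psmb9 and Psmb10 replace, Psmb5 was at 254 and 249.6 in macrophage-like cells, Psmb6 at 434 and 462 and Psmb7 at 144 and 142.

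Of 14 transcription factors and interferon signalling genes that reached 50 CPM in macrophage-like cells, 0 passed the fold, from Ifnar2 (-0.13) to Stat2 (0.37). Irf1, a transcription factor induced by interferon-γ, was at 135 and 141, and Ifngr1 was at 109.6 and 110.0 (0.01). In melanoma-like cells Irf1 was lower, at 42.4 and 32.1 (-0.40, -0.67 to -0.14).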

How the data were processed

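Per the labels and the file headers, the authors sorted live CD45+ cells, prepared Chromium 3′ v3 libraries and deposited a matrix of UMI counts, whole numbers that were not normalized, made with Cell Ranger 4.0.0 on mm10. Each library pooled cells from several mice. Barcodes with at least 200 genes and at most 10% mitochondrial UMIs were kept. The highest Scrublet scores (scanpy 1.11.5) were removed at 0.8% per 1000 cells, 256 and 532 cells. Classes needed at least 2 markers and a summed marker level over a threshold set after the values were seen (UMIs per 10000: macrophage 40, monocyte 40, granulocyte 100, cDC1 15, cDC2 15, mature DC 30, pDC 25, T 15, NK 15, B 20, melanoma 50), with CD8 and CD4 T-like cells split by Cd8a and Cd8b1 against Cd4. Macrophage and monocyte counted as 1 lineage, and a cell over both thresholds went to the class further over its own. Cells over the thresholds of 2 or more lineages (461 and 510) or under all (576 and 938) were set aside. A pDC-like cell also over the monocyte threshold was kept. T-like cells with UMIs of neither side or of both (202 and 281) and classes under 50 cells were also set aside. UMIs were summed per class and library and scaled to CPM. Intervals are exact (Poisson or Clopper-Pearson, scipy 1.17.1). Steps were tested on simulated counts. The 10 genes, the lists and the markers were chosen with earlier results of these data known. The rule named all 10 in every class, of which the text prints only some where few differed, with the highest and lowest of each list in macrophage-like cells and 9 genes always named, of which 1, with 1 promoter motif, is not reported here. Alternatives covered filters, doublets, Leiden clusters (leidenalg 0.10.2), weights, thinning to 1000 or, chosen after seeing the data, 10000 UMIs, denominator, scaling and pseudocount.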

Additional observations from a re-analysis of the deposited data

Results flagged for a closer look

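H2-K1, H2-D1 and B2m lay on opposite sides of 0 in macrophage-like and CD8 T-like cells. In macrophage-like cells H2-K1 had a log2 ratio (KO over WT) of 0.20, H2-D1 of 0.13 and B2m of 0.05. In CD8 T-like cells the values were -0.26, -0.17 and -0.26, and all 6 intervals left out 0. The gap between the classes was 0.46 for H2-K1, 0.30 for H2-D1 and 0.32 for B2m. With 1 library per genotype, the difference was not tested. With every cell given equal weight, the CD8 T-like ratios were -0.03, 0.01 and -0.05, with cells thinned to 1000 UMIs their intervals reached 0, and B2m was above 0 in 2 of 7 macrophage-like clusters.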

How the results depend on the processing

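No paired analysis was possible because the labels carry no replicate numbers and each genotype is 1 library. Of 1089 alternative log2 ratios of the 10 genes in the 12 classes, 1014 kept their sign. The median in macrophage-like cells was 0.21 with every cell given equal weight. The count past the fold in granulocyte-like cells, 1 in the main analysis, was 3 with the stricter filter, 6 with doublets kept, 2 with Leiden clusters, 3 with thinned cells, 0 with equal weight for cells, with median-ratio scaling and with equal weight for clusters, and 2 with thresholds 1.5 times higher, which were chosen after seeing the data. In melanoma-like cells the count of 5 became 2 with doublets kept, 1 with equal weight for cells and 3 with cells thinned to 1000 UMIs, and was also 5 with cells thinned to 10000, 4 of them the same genes. In cDC2-like cells the count of 4 became 7 with thinned cells and 7 with equal weight for clusters. The median log2 ratio of melanoma-like over macrophage-like cells, -2.25 under the WT label and -2.004 under the KO label, was -2.02 under the WT label with thinned cells and -1.85 under the KO label without mitochondrial, ribosomal protein and haemoglobin genes. With thinned cells Tap1 in NK-like cells was at -0.11 and Psmb9 in melanoma-like cells at -0.73, opposite to the main values. The cause of these changes was not tested. Leiden clusters gave 11 of the 12 classes, since no cluster was named cDC2-like, and the cDC2-like values have no counterpart there. Counts of UMIs limit Nlrc5 and Tap2 in the small classes, where most intervals reach 0.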
